A study of Mus musculus with 2 samples.

Results

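miR-199a, miR-199b and miR-214 are microRNAs (miRNAs) of fibroblasts, hepatic stellate cells and other mesenchymal cells. Their mature strands were taken from a deposited small RNA table of mouse liver by name, as the rows called miR-199a, miR-199b or miR-214 with a 5p or 3p suffix. This gave 6 of the 281 listed rows, mmu-miR-199a-3p, mmu-miR-199a-5p, mmu-miR-199b-3p, mmu-miR-199b-5p, mmu-miR-214-3p and mmu-miR-214-5p, written below without the species prefix. miR-199a-3p and miR-199b-3p have the same sequence and carried the same reads in both libraries, so the 6 rows hold 5 separate sets of reads. There was 1 library from the liver of a DICER1 mutant mouse and 1 from a wild-type liver, both from C57BL/6 animals at 3 months of age. The mice stand for DICER1 syndrome, an inherited human disposition to tumours, and the column headers call the mutant hDICER1_Mut. The labels used here give neither the DICER1 variant, nor the promoter or tissue of its expression, nor whether the mutant tissue was tumour, although the series' design text speaks of normal liver and of liver cancer. With 1 library per genotype, effects of genotype, individual mouse, piece of tissue and library preparation cannot be told apart. No p-value was therefore computed, and every interval below is a 95% interval that covers counting error only.

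Each miRNA is transcribed within a longer RNA, folded into a hairpin and cut by Dicer into a 5p strand from the 5′ side and a 3p strand from the 3′ side. Bases 2 to 8 of the mature strand, the seed, carry most of the pairing with target messenger RNAs. In liver, miR-199a and miR-214 are best known from the stellate cell, the pericyte that stores vitamin A and becomes a collagen-producing myofibroblast in injury, and both have been reported to increase in fibrotic liver of mouse and human. In human liver cancer cells miR-199a-3p represses the growth regulators MTOR and MET, and in mouse stellate cells miR-214 represses the matricellular factor Ccn2. The reads of a whole piece of liver come from all its cells, so a larger number of such cells and more of the miRNA per cell cannot be told apart.

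The mature strands are shown with the seed in capitals, since the seed sets which messages each can pair with. They are RefSeq entries on GRCm38.p6, the assembly also known as mm10, and were found for 5 of the 6 names. miR-199b-5p is named only.
miR-199a-5p: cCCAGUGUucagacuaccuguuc
miR-199a-3p and miR-199b-3p: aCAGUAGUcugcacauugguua
miR-214-5p: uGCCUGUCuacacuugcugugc
miR-214-3p: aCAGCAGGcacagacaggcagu
The strands from the 3′ sides of the hairpins have related seeds, identical at 5 of 7 positions between miR-199a-3p and miR-214-3p. The seed of miR-214-3p is also that of miR-761, which is not analysed here. The RefSeq table holds no other mature entry with the seed of miR-199a-5p or of miR-214-5p.

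The 4 hairpins lie within genes of the dynamins, the GTPases that pinch off endocytic vesicles, in each case on the opposite strand of an intron. Mir199a-2 (chr1:162217814-162217923, plus strand) and Mir214 (chr1:162223368-162223477, plus strand) lie 5444 bases apart in Dnm3. Both also overlap exons of Dnm3os, the noncoding RNA on the same strand that is their known precursor. Mir199a-1 (chr9:21496495-21496564, minus strand) lies in Dnm2 and Mir199b (chr2:32318460-32318569, plus strand) in Dnm1. The hairpins are shown with the RefSeq mature strands in capitals, to show where these lie. For Mir199b only the 3p strand has a RefSeq mature entry, so its 5p side is in lower case.
Mir199a-1: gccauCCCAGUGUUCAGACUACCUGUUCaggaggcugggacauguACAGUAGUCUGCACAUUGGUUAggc
Mir199a-2: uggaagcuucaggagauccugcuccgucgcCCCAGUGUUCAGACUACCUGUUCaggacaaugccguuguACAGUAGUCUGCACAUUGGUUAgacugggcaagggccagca
Mir199b: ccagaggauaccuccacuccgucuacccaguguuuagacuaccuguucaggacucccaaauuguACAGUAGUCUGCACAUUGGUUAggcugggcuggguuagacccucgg
Mir214: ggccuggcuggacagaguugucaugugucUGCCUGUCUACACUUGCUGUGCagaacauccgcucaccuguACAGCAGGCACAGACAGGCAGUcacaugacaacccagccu
The loops between the strands measured 17 bases in Mir199a-1, 16 in Mir199a-2 and 19 in Mir214. Both copies of Mir199a give the same 5p and 3p strands, so their reads cannot be assigned to one locus. The Mir199b hairpin holds the 23 bases of miR-199a-5p with 1 difference, C10U, counted from the 5′ end of miR-199a-5p with its base first. The difference lies outside bases 2 to 8, so the seed of miR-199a-5p stands unchanged in the Mir199b hairpin. Reads of miR-199a-5p and miR-199b-5p are therefore separable at 1 base only. The rule by which the authors counted mismatched reads is not known here, so the split between these strands is uncertain.

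Levels are given in RPM, the deposited unit in which the read count is scaled to a common library total. The totals were 18480608 reads for the mutant and 11432192 for the wild type, so 1 read stood for 0.0541 RPM in the mutant and 0.0875 RPM in the wild type. The counts of all listed rows, in which reads shared by several rows are repeated, summed to 61.2% of the mutant total and 81.8% of the wild-type total. The hepatocyte miRNA miR-122-5p, which marks the labelled tissue, was present at 7303 RPM in the mutant and 14951 RPM in the wild type.

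All 5 sets of reads were more abundant in the mutant liver, by 10.5-fold to 31.9-fold in RPM. Together they amounted to 228029 reads in the mutant and 11049 in the wild type, which is 1.23% (interval 1.23% to 1.24%) of the mutant library and 0.0966% (interval 0.0949% to 0.0985%) of the wild-type library. Their summed RPM was 12.8-fold higher in the mutant (interval 12.5 to 13.0). The background is a table in which most miRNAs were higher. Among the 276 listed miRNAs whose reads summed to 10 or more, the mutant had a ratio of at least 2 with an interval excluding equality for 62.0%, and 7.25% were lower by the same rule. Every row of the table is at least 2-fold changed in the authors' deposited table, so the members reached it through the change itself, and their count of 5 of 5 carries no weight of its own.

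The shared miR-199-3p strand dominated the group. It had 192126 reads in the mutant and 9289 in the wild type, which is 10396 RPM against 813 RPM. The ratio was 12.8 (interval 12.5 to 13.1). It ranked 9th of the 281 listed miRNAs by reads in the mutant library and 25th in the wild-type library. Its RPM in the mutant was above that of miR-122-5p, and in the wild type it was far below it.

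miR-199a-5p, which is known to repress caveolin 1 in human lung fibroblasts, had 21054 reads in the mutant and 1241 in the wild type, or 1139 RPM against 109 RPM. Its ratio of 10.5 (interval 9.91 to 11.1) was the smallest of the group. miR-199b-5p was the rarest strand in the wild type and had the largest ratio. It had 2116 reads in the mutant and 41 in the wild type, or 114 RPM against 3.59 RPM. The ratio was 31.9, and the few wild-type reads left an interval of 23.5 to 44.6.

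miR-214-3p, the abundant strand of its hairpin, had 11217 reads in the mutant and 406 in the wild type, or 607 RPM against 35.5 RPM. Its ratio was 17.1 (interval 15.5 to 18.9). The minor strand miR-214-5p had 1516 reads in the mutant and 72 in the wild type, or 82.0 RPM against 6.30 RPM. Its ratio was 13.0 (interval 10.3 to 16.7). For each of the 5 sets of reads the mutant and wild-type counting intervals lay apart, in rows that had entered the table by a 2-fold change.

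**Figure D1:**
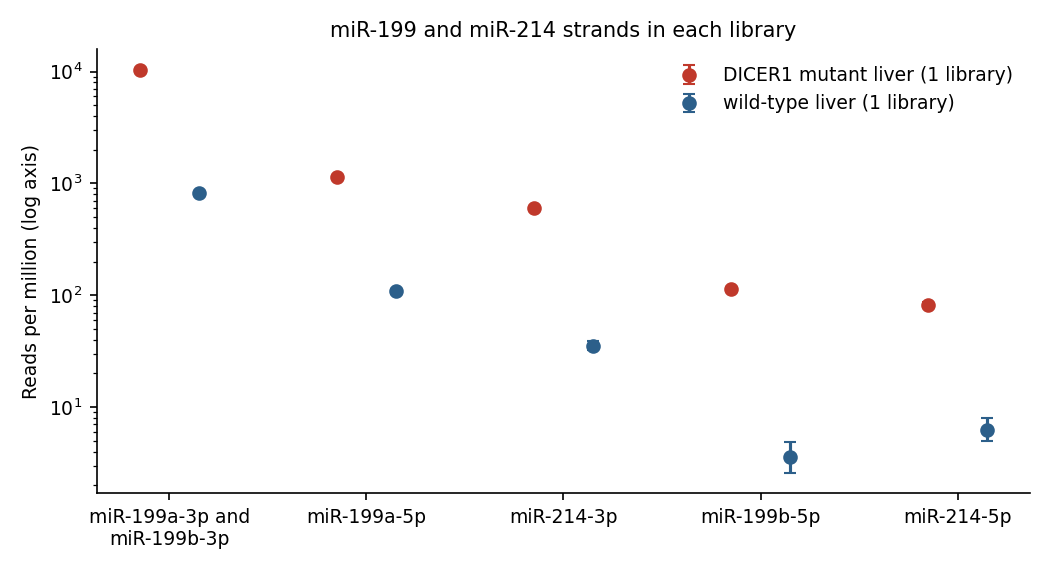
Level of each miR-199 and miR-214 strand in RPM on a log axis, with the DICER1 mutant library in red and the wild-type library in blue. Points are single libraries and bars are exact Poisson 95% intervals of the count, often smaller than the point. The shared miR-199-3p strand stood highest in both libraries, at 10396 RPM in the mutant and 813 RPM in the wild type.

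In size, the changes lay in the middle of the higher part of the table. The 171 listed miRNAs called higher had ratios from 4.78 to 434 (the highest on 1 wild-type read, interval 77.6 to 17152) with a median of 13.3, and 2 of the 5 sets of reads, miR-199b-5p and miR-214-3p, lay above that median. By ratio, miR-199b-5p ranked 40th, miR-214-3p 66th, miR-214-5p 87th, the shared miR-199-3p strand 90th and miR-199a-5p 104th of the 276. On the log2 scale the median fold change of the 5 sets was 3.70, against 2.74 over all 276 listed miRNAs. By RPM the table holds no ratio between 1.19 and 4.78, since the authors' fold limit was applied on another scale.

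**Figure D2:**
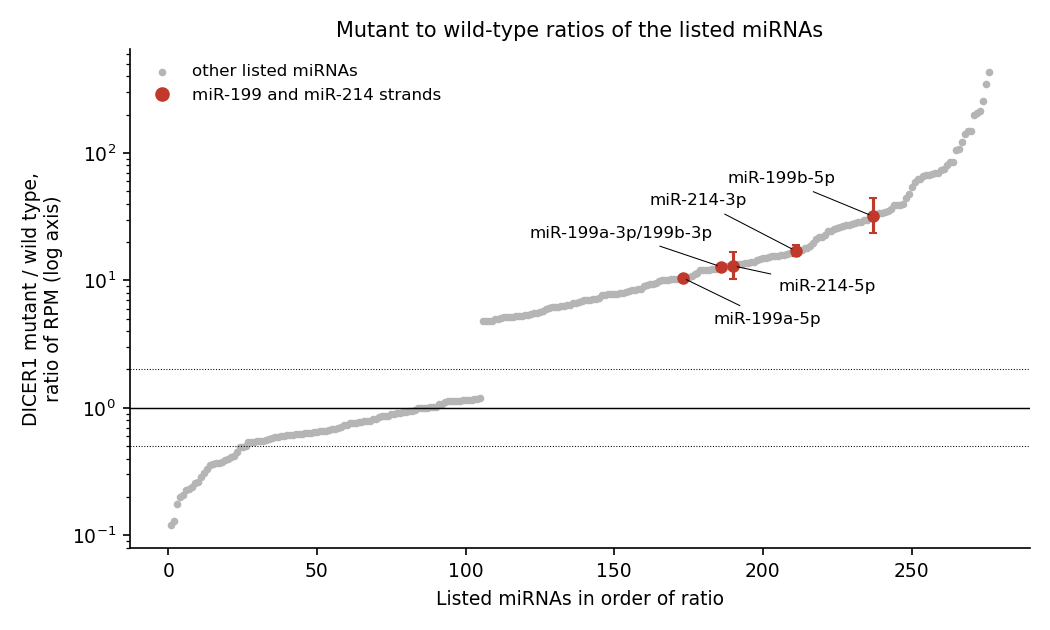
Ratio of RPM in the DICER1 mutant over the wild type, on a log axis, for the 276 listed miRNAs with at least 10 reads, in order of ratio. The miR-199 and miR-214 strands are red with 95% counting intervals, the solid line marks equality and the dotted lines 2-fold. The members lie at ratios of 10.5 to 31.9, within the upper group of the listed miRNAs.

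Within the group the ratios ran from 10.5 to 31.9 and differed by more than counting error in most pairs. Of the 10 pairs among the 5 sets of reads, 8 had a ratio of fold changes whose interval excluded equality. Every pair with miR-199b-5p was among these, and that strand rests on 41 wild-type reads and 1 distinguishing base. These comparisons do not depend on how the libraries are scaled. The fold change of miR-199b-5p was 3.01 times that of miR-199a-5p (interval 2.20 to 4.11) and 1.85 times that of miR-214-3p (interval 1.34 to 2.55). The fold change of miR-214-3p was 1.33 times that of the shared miR-199-3p strand (interval 1.21 to 1.48) and 1.63 times that of miR-199a-5p (interval 1.45 to 1.82). miR-214-5p was not separated from the shared miR-199-3p strand, with a factor of 1.01 (interval 0.798 to 1.28), nor from miR-199a-5p, with 1.23 (interval 0.968 to 1.57). Without replicates, none of these differences could be set against the spread between animals.

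The make-up of the group's reads was similar in both libraries. The shared miR-199-3p strand took 84.3% of them in the mutant (interval 84.1% to 84.4%) and 84.1% in the wild type (interval 83.4% to 84.7%). The share of miR-199a-5p was 9.23% in the mutant and 11.2% in the wild type. That of miR-214-3p was 4.92% in the mutant and 3.67% in the wild type. miR-199b-5p made up 9.13% of the miR-199 5p reads in the mutant (interval 8.76% to 9.51%), against 3.20% in the wild type (interval 2.30% to 4.31%). The last contrast rests on 41 wild-type reads and on the single distinguishing base.

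The balance between the strands of a hairpin was compared next, because the submitters classed reads by strand and because the cuts that free the 5p and the 3p strand are made by different RNase III domains of Dicer. The 5p strand of miR-214 took 11.9% of the hairpin's reads in the mutant (interval 11.3% to 12.5%) and 15.1% in the wild type (interval 12.0% to 18.6%). This is a log2 odds ratio of -0.40 with an interval of -0.77 to -0.03. For miR-199a, with the shared 3p reads set against miR-199a-5p alone, the 5p share was 9.88% in the mutant and 11.8% in the wild type, a log2 odds ratio of -0.29 (interval -0.37 to -0.20). With the reads of miR-199a-5p and miR-199b-5p summed it was 10.8% in the mutant and 12.1% in the wild type, with a log2 odds ratio of -0.20 (interval -0.28 to -0.11). The 3p strand was thus the major one in both libraries, and its share was somewhat larger in the mutant. miR-199b set against the same shared 3p reads had a log2 odds ratio of 1.30 (interval 0.86 to 1.75), a figure that inherits the doubts about miR-199b-5p and about the origin of the shared reads.

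Over the 62 listed hairpins with both strands and at least 10 reads per strand, both libraries summed, the median log2 odds ratio was -0.53, the quartiles were -1.81 and -0.07, and 50 were below 0. miR-199a and miR-214 stood near the middle of this range, at positions 36 and 33 from the lowest. miR-199b was at position 61. Since a strand entered the table only if it changed on the authors' scale, these hairpins are not all hairpins of the liver.

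**Figure D3:**
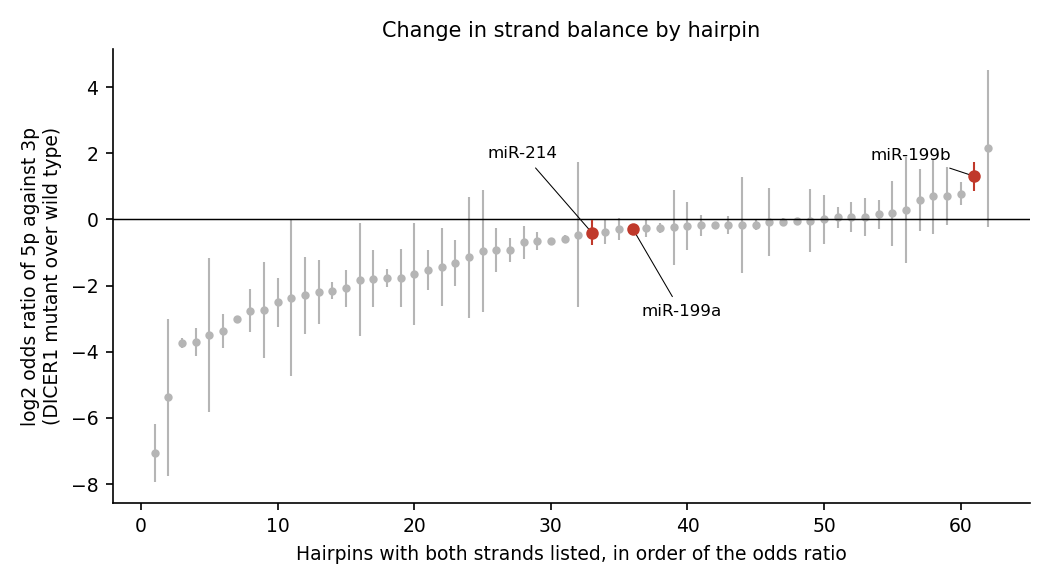
Log2 odds ratio of 5p against 3p reads, DICER1 mutant over wild type, for 62 hairpins in order of the ratio, with 95% Woolf intervals. Values below 0 mean a smaller 5p share in the mutant. miR-199a (-0.29) and miR-214 (-0.40) lie near the median of -0.53, and miR-199b (1.30), drawn against 3p reads it shares with miR-199a, lies near the upper end.

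Set against other miRNAs of the same library, the group was larger relative to hepatocyte products in the mutant. For every 100 reads of miR-122-5p there were 169 member reads in the mutant and 6.46 in the wild type, a 26.1-fold difference (interval 25.6 to 26.7). For every 100 reads of miR-192-5p, the hepatocyte and gut miRNA, there were 10.5 in the mutant and 0.296 in the wild type. This difference was 35.5-fold. It was smaller against the hepatocyte strands miR-148a-3p, at 20.6-fold, and miR-22-3p, at 15.5-fold. Against miR-21a-5p, which is expressed by many cell types, the counts were 35.9 in the mutant and 3.19 in the wild type per 100 reads, an 11.3-fold difference (interval 11.0 to 11.5). Against the leukocyte miRNA miR-142a-5p they were 160 in the mutant and 61.9 in the wild type. Against the epithelial miRNA miR-200b-3p the direction was the opposite, with 754 in the mutant and 1700 in the wild type per 100 reads. Single strands stand for cell types here. The group's summed ratio was 12.8, against 7.18 (interval 4.43 to 12.4) for miR-200a-5p and 6.29 (interval 2.73 to 17.8) for miR-200b-5p. The leukocyte strands miR-223-5p and miR-342-5p had 15.9 (interval 8.26 to 35.3) and 15.1 (interval 6.75 to 41.7). The remaining epithelial strands had ratios above that of the group and the remaining leukocyte strands below it.

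The label of stromal cells was set against other miRNAs known from stellate cells and fibroblasts. Of 15 further hairpins on that list, 9 had listed strands and the other 6, among them the smooth muscle and pericyte miRNAs miR-143 and miR-145a, are not analysed here. Of the 12 listed strands 7 were at least 2-fold higher, none was 2-fold lower and 5 were neither. Over all 276 listed miRNAs 62.0% were higher and 7.25% lower, so the higher strands were no larger a part of this list. The median log2 fold change was 2.54, against 2.74 over all listed miRNAs. The 5 strands that were neither by RPM were called 2-fold lower with the authors', TMM or DESeq2 factors, and 2 strands were without the top miRNA of each library. Over all 276 listed miRNAs 105 were lower with the authors', TMM or DESeq2 factors and 58 without the top miRNAs. Every row had already passed a 2-fold limit on the authors' scale, so the calls on that scale carry no weight of their own. The higher strands then numbered 7, 6, 2 and 7 in the order of these scalings. Of all 276 listed miRNAs, 171 were higher with the authors' factors and 171 without the top miRNAs. Fewer were higher with TMM factors, and 75 with DESeq2 size factors. miR-99a-3p, from a hairpin linked to growth control through Mtor, had 513 RPM in the mutant and 34.03 RPM in the wild type, a ratio of 15.1 (interval 13.6 to 16.7). Its partner strand miR-99a-5p had 405 RPM in the mutant and 356 RPM in the wild type, a ratio of 1.14. miR-125b-1-3p had a ratio of 13.6, the p53-responsive strand miR-34c-5p had a ratio of 10.7 and miR-218-5p, a repressor of Robo signalling genes, had a ratio of 8.45. miR-335-3p had a ratio of 5.22. The ratios of miR-34c-3p, 10.1 on 3 wild-type reads (interval 3.26 to 50.7), and of miR-100-3p, 6.80 on 7 (interval 3.15 to 17.5), were poorly fixed. The most abundant strand of the list, miR-21a-5p, had a ratio of 1.13, miR-31-5p had 1.11, and the cartilage miRNA miR-455 had 0.600 for its 5p and 0.669 for its 3p strand. Apart from miR-99a-3p, the higher strands were rare, the most abundant being miR-335-3p at 132 RPM in the mutant and 25.2 RPM in the wild type.

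miR-29 represses collagen messages and is known to be lowered in activated stellate cells of mouse and human. Of its 6 listed strands none was 2-fold higher by RPM and 1 was 2-fold lower. All 6 were lower with the authors', TMM or DESeq2 factors, 2 without the top miRNAs and 0 with a 4-fold limit. Among the 276 listed miRNAs 7.25% were lower by RPM, 58 were lower without the top miRNAs and 8 with a 4-fold limit. With the authors', TMM or DESeq2 factors 105 were lower. On the authors' scale each row had already passed a 2-fold limit, so those calls carry no weight of their own. The strand lower by RPM was miR-29c-3p, at 234 RPM in the mutant and 630 RPM in the wild type, a ratio of 0.371 (interval 0.357 to 0.386). miR-29a-3p, the most abundant, had 2557 RPM in the mutant and 2763 RPM in the wild type, a ratio of 0.925. miR-29b-3p had a ratio of 0.893 and miR-29c-5p of 0.638.

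Markers of other cell types differed between the same libraries. Their counts by RPM are read against the 62.0% of listed miRNAs that were higher by RPM and the 7.25% that were lower. Every row had also passed the authors' limit of 2-fold. All 7 listed epithelial strands of the miR-200 family were at least 2-fold higher, and their summed level was 4451 RPM in the mutant and 163 RPM in the wild type. With TMM factors all 7 and with DESeq2 size factors 5 were called higher. The most abundant of them, miR-200b-3p and miR-141-3p, had ratios of 28.8 and 27.5, and miR-200a-3p and miR-429-3p had 17.4 and 36.5. All 8 listed leukocyte strands were higher too, with a summed level of 9999 RPM in the mutant and 1862 RPM in the wild type. With TMM factors 6 of the 8 were called higher and with DESeq2 size factors 2. DESeq2 size factors called 75 of the 276 listed miRNAs higher. By RPM miR-142a-5p and miR-142a-3p had ratios of 4.95 and 7.81, and miR-223-3p and miR-150-5p had 10.1 and 4.78. Of 13 listed hepatocyte strands none was 2-fold higher and 3 were 2-fold lower by RPM, with a summed level of 334422 RPM in the mutant and 614862 RPM in the wild type. The lower strands were miR-122-5p with a ratio of 0.488, miR-194-5p with 0.417 and miR-192-5p with 0.360. Among the most abundant, miR-22-3p had a ratio of 0.821, miR-148a-3p of 0.620 and miR-101a-3p of 1.16. The rarer miR-802-3p, at 71.9 RPM in the mutant and 66.7 RPM in the wild type, had 1.08 with an interval including equality (0.986 to 1.18). miR-101a-3p is uncertain, since the row of miR-101c carries nearly the same counts. All 13 were called lower with the authors', TMM or DESeq2 factors, each of which called 105 of the 276 listed miRNAs lower. The hepatocyte strands called lower numbered 8 without the top miRNAs, 1 by listed counts and 0 at a 4-fold limit. In the same order 58, 14 and 8 of the 276 listed miRNAs were called lower. No strand of the endothelial list was analysed here, and of the muscle list only miR-133a-3p was, with 41 reads in each library. No listed marker was at 0 in either library, which holds for every listed row, since the smallest count was 1. The part of these other cell types in the levels of miR-199 and miR-214 was not tested.

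Outside the group, the listed miRNAs whose log2 fold change lay nearest to the 3.68 of miR-199a-3p were sought among the 107 with at least 1000 reads. The likeness is a distance in one fold change over 2 libraries and carries no more than that. The nearest 5 were miR-497a-5p, a member of the miR-15 family that restrains the cell cycle, with a ratio of 12.4, then miR-18a-5p of the miR-17-92 cluster with 13.3, miR-15a-3p with 13.5, miR-125b-1-3p with 13.6 and miR-134-5p of the imprinted Dlk1-Dio3 region with 11.5. None of them reached the level of miR-199a-3p, and the most abundant, miR-497a-5p, had 506 RPM in the mutant and 40.9 RPM in the wild type.

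miR-214 and one copy of miR-199a arise from Dnm3os, whose transcription in mouse is known to be driven by the mesenchymal factor Twist1, which binds E-boxes. The RefSeq promoter window on GRCm38.p6, chr1:162217373-162217672 on the plus strand, runs from 250 bases before the transcript start to 50 after it. It is shown because Mir214 and Mir199a-2 both overlap exons of Dnm3os, although the miR-199a reads cannot be assigned to Mir199a-2. Matches to the E-box CANNTG and to the CArG box, the site of serum response factor, are in capitals. Transcription of Dnm3os was not tested.
Dnm3os promoter: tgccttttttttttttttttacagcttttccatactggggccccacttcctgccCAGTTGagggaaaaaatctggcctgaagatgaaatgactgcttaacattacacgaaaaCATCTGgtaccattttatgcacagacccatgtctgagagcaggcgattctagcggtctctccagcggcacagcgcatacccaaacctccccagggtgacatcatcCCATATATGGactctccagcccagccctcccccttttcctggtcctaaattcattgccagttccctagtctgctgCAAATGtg
There were 3 E-box matches, starting 196 and 138 bases before the transcript start and downstream of it, and 1 CArG match, starting 33 bases before it. Both patterns read the same on either strand, and the matches do not overlap. Of 32851 promoter windows of the same length, 72.3% held at least 1 E-box match and 1.63% a CArG match. A match is a run of letters and no evidence of binding in these livers.

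The size of the changes depended on how the libraries were scaled, but not their order within the group. In the authors' deposited table the signed fold of the mutant over the wild type was 5.37 for miR-199a-3p and miR-199b-3p, 4.40 for miR-199a-5p, 13.4 for miR-199b-5p, 7.17 for miR-214-3p and 5.46 for miR-214-5p. Those values use library factors that make every ratio 2.38-fold smaller than in RPM. Under the 5 scalings tried beside RPM, the authors' among them, all 25 log2 fold changes of the members stayed above 0, between 0.67 and 5.40. With DESeq2 size factors computed on the listed rows, which shift all log2 values by -2.73, only miR-199b-5p and miR-214-3p stayed at least 2-fold higher, with ratios of 4.83 and 2.58. The shared miR-199-3p strand then had 1.93, miR-214-5p 1.97 and miR-199a-5p 1.59. With the same factors 75 of the 276 listed miRNAs were called higher. DESeq2 size factors take the median ratio of the listed miRNAs as equality, and most of these miRNAs were listed because they were higher.

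**Figure D4:**
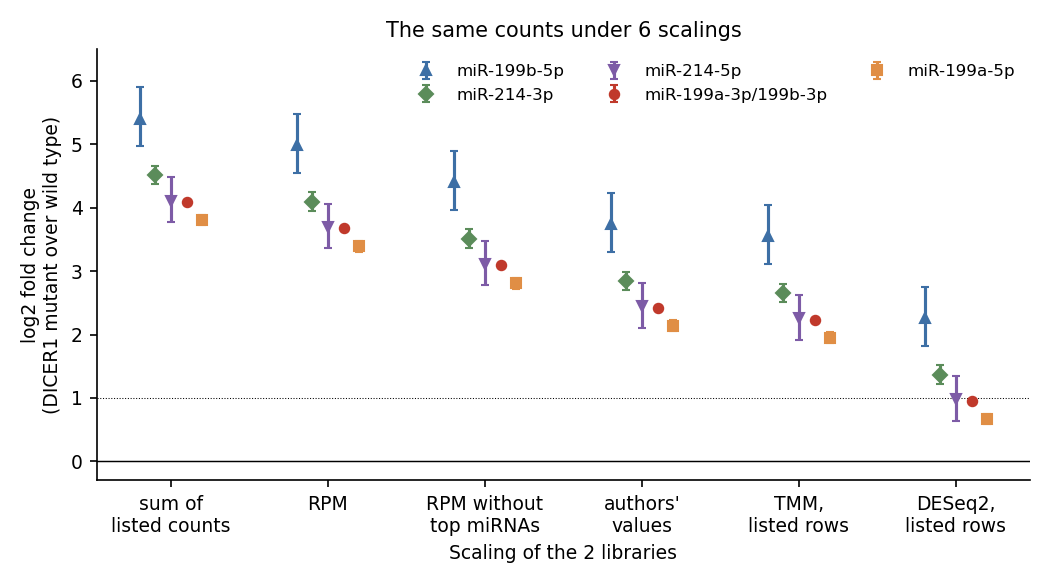
Log2 fold change of each miR-199 and miR-214 strand, DICER1 mutant over wild type, under 6 scalings of the same counts, with 95% counting intervals. The solid line marks equality and the dotted line 2-fold. All points lie above 0, and with DESeq2 size factors 3 of the 5 fall below the 2-fold line.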

How the data were processed

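Total RNA of mouse liver went into SMARTer smRNA-seq libraries that were read from one end, per the labels' protocols. The reads were mapped to mm10 and miRBase 22.1 and assigned to 5p or 3p strands, per the labels' protocols. The submitters' processing notes name cutadapt with no version. How reads were counted and tested is not known here.

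The authors deposited raw read counts and RPM values for 281 mature miRNAs. Counts divided by RPM gave the library totals used for scaling. The authors also deposited log2 normalized values and a signed fold score, used here only for an alternative scaling and as printed. The p-values in the authors' deposited table were not used.

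Ratios of RPM have exact conditional binomial intervals, summed levels exact Poisson and shares Clopper-Pearson intervals. Strand odds ratios and ratios of fold changes add 0.5 to each count and have Woolf intervals. Log2 fold changes add 0.5 reads, scaled by library total, to each count. A miRNA with at least 10 reads over both libraries was called when it differed at least 2-fold with an interval excluding equality. Reads can be PCR copies of one molecule, so the intervals describe counting error alone. Calculations were tested on simulated data (Python 3.11.15, scipy 1.17.1). Scalings used edgeR 4.0.16 and DESeq2 1.42.0. Sequences are from RefSeq and host genes from GENCODE M21, both on GRCm38.

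The members and lists were chosen with earlier results of these data known. Named were all members, all other listed stromal strands, up to 4 abundant strands of each other list, the 5 nearest fold changes and strands sharing a seed. miR-122-5p, miR-194-5p and miR-802-3p were named after their values were seen. Alternatives were other scalings, pseudocounts, read minimums, fold limits and ways of counting the shared strand.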

Additional observations from a re-analysis of the deposited data

How the results depend on the processing

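With 1 library per genotype no replicate could be left out, and no p-value bears on any result. No paired analysis was possible because each group holds 1 library. Directions of the members held under every scaling tried, and sizes did not. The log2 fold changes of miR-199a-3p, miR-199a-5p, miR-199b-5p, miR-214-3p and miR-214-5p, in this order, and of their sum were 2.42, 2.14, 3.74, 2.84, 2.45 and 2.42 with the authors' factors. They were 2.23, 1.95, 3.55, 2.65, 2.26 and 2.23 with TMM factors, 0.95, 0.67, 2.27, 1.37, 0.98 and 0.95 with DESeq2 size factors, and 3.09, 2.81, 4.40, 3.51, 3.11 and 3.09 without the top miRNA of each library. With the sum of listed counts they were 4.10, 3.81, 5.40, 4.51, 4.11 and 4.09. With DESeq2 size factors 2 members, 75 listed miRNAs and 2 strands of the other stromal list were called higher. The listed miRNAs called lower numbered 105 with the authors', TMM or DESeq2 factors, 58 without the top miRNAs, 13 with at least 100 reads and 8 with a 4-fold limit. The median of the other stromal list was 1.31, 2.95, 1.12, -0.15 and 1.97 with the authors' factors, listed counts, TMM, DESeq2 and totals that leave out the top miRNAs. The same median was 2.29 with a pseudocount of 5 reads and 1.29 with at least 100 reads. The miR-29 median, -0.35 by RPM, was 0.058 with listed counts, -1.57 with the authors' factors, -1.75 with TMM, -3.02 with DESeq2 and -0.91 without the top miRNAs. With DESeq2 size factors miR-142a-5p, miR-150-5p and miR-335-3p turned to -0.42, -0.47 and -0.34. Summing both miR-199 5p strands gave a log2 odds ratio of -0.20. Scaling cancels in the strand balances and in the ratios between members. Among the members, depth limits miR-199b-5p most, at 41 wild-type reads.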
